A study of Mus musculus with 11 samples.

Results

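The 7 genes described here are 5 members of the Iroquois homeobox family, Irx1, Irx2, Irx3, Irx4 and Irx5, and 2 genes of the ventricular conduction system, Etv1 and Cntn2. They were picked by symbol, and all 7 were found among the 15274 genes of the table. The series compared injured and uninjured regions of the heart in mice of 8 weeks from 2 inbred strains, C57BL/6J (B6) and C3H/HeJ (C3H), by RNA sequencing of total RNA. Of B6 hearts there were 3 uninjured and 3 injured regions, and of C3H hearts 3 uninjured and 2 injured ones, all with day 7 in the sample title. No transgene or agent is named for any of these 4 groups. By the numbers in the sample titles, the 11 libraries were taken to come from 6 mice. Of these, 5 gave both an uninjured and an injured region. How hearts were injured is not stated in the sources used here.

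Iroquois proteins are transcription factors of the TALE homeodomain class, and their genes lie in a pair of clusters in mammalian genomes. In the heart, Irx4 is known as a factor of ventricular muscle, Irx3 for its role in fast conduction through the His-Purkinje network and Irx5 for the gradient of repolarising potassium current across the ventricular wall. Irx1 and Irx2 are known from the developing ventricles. Etv1 is an ETS-family factor that acts downstream of neuregulin signalling in fast-conducting heart muscle, and Cntn2 encodes contactin 2, a cell adhesion molecule used as a marker of Purkinje cells.

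In the mouse annotation Irx1, Irx2 and Irx4 are neighbours on chromosome 13, between Adamts16 and Ndufs6. Irx3, Irx5 and Irx6 are neighbours on chromosome 8, between Fto and Mmp2. Etv1 lies between Dgkb and Arl4a on chromosome 12, and Cntn2 between Tmem81 and Nfasc on chromosome 1. RefSeq promoter sequences (build GRCm38.p6) were matched for 5 of the 7 genes. The 250 bases before the start are printed for 3 Iroquois genes from both clusters, whose levels were lower together in injured C3H hearts, and for Etv1, which had a higher mean there. Capitals mark the letters CACCC, or GGGTG where the motif is on the other strand.
Irx2 (chr13:72628570-72628819, plus strand): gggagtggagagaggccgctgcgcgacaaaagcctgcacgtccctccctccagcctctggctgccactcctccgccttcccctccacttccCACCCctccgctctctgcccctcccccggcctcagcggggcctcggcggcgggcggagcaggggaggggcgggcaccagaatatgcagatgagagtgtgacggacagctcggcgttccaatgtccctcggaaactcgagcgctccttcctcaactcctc
Irx4 (chr13:73260247-73260496, plus strand): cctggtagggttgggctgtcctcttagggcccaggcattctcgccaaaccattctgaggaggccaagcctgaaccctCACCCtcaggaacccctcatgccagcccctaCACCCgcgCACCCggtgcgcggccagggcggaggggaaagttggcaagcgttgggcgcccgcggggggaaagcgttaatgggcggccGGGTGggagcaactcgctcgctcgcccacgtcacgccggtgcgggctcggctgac
Irx3 (chr8:91801655-91801904, minus strand): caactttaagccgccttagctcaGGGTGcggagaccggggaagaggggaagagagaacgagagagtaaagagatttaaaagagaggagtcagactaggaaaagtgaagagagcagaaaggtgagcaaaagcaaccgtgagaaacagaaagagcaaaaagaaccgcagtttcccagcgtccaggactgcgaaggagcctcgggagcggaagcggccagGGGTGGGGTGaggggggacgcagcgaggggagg
Etv1 (chr12:38779832-38780081, plus strand): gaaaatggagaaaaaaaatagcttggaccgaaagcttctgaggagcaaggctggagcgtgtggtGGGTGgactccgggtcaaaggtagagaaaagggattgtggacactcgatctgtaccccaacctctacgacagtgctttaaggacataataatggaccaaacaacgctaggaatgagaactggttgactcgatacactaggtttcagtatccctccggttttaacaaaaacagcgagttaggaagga
These windows hold 68.4% G and C for Irx2, 68.8% for Irx4, 56% for Irx3 and 46.4% for Etv1, against a median of 52.4% over all promoters. The CACCC motif is in each of them, as it is in 52% of all 32851 promoters of this length. Neither strand of these 4 windows holds the Iroquois binding element ACANNTGT (in 6.31% of promoters), the T-box motif AGGTGT (11.8%) or the ETS core CCGGAA (12%). They also lack the GATA-factor motif AGATAA (9.99%), the E-box CACCTG (17.2%) and the MEF2-like run TATTTTTA (2.45%). A second Etv1 start in the same table has none of these 7 motifs.

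Values below are the deposited normalised read counts, which are read counts divided by 1 size factor per library. The libraries held 9699985 to 22138459 reads in genes. Fold values on the log2 scale are differences of group means of log2(normalised count + 1), and calls use limma with a Benjamini-Hochberg adjusted p below 0.05 over 14751 tested genes, all 7 genes included. The 7 genes were chosen with earlier results of these data known. Those results named Irx1 and Irx5 for their B6 injury effect, and which values chose the other genes, or whether C3H values had a part, is not recorded. The B6 injury contrast was treated as used for all 7. Its values, the strain contrasts that share the B6 libraries and the strain difference of the injury effect are therefore given with no test for the 7 genes. All 16 cardiomyocyte markers were detected in all groups, the atrial light chain gene Myl7 had at most 24.9 counts in any library, and the ventricular light chain gene Myl2 averaged 199662 in uninjured B6 and 153985 in uninjured C3H hearts. Xist was at 3.14 to 12.2 in the B6 and 1840 to 8478 in the C3H libraries, and the sum of 4 Y-linked genes at 2824 to 4633 and 0.888 to 12.1, so strain and sex cannot be told apart.

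In injured C3H hearts the 5 Iroquois genes fell, with log2 differences between -4.42 and -1.49, while Cntn2 missed the threshold and Etv1 had a higher mean. So 5 of the 7 genes were lower past the threshold, where 15.4% of all tested genes were, and none was higher, where 15.3% were. As C3H values may have had a part in choosing the genes, their C3H p-values and counts are no independent support. Without the second injured C3H library, 3 of the 7 were lower past the threshold. Of the 7, 1 was higher and 6 were lower at an unadjusted p below 0.05 by limma. By edgeR the counts were again 0 higher and 5 lower, and by DESeq2 0 higher and 6 lower. For these other settings no share over all tested genes is given, so nothing is read from their counts. The median effect was -1.93 over the 7 genes and 0.01 over all tested genes. In B6 hearts all 7 means were lower in the injured region, with a median of -2.33 on the log2 scale. In B6 hearts 2 genes passed over the whole table, Angptl7 and Thbs4, both higher (0.0136%). With the mouse as a fixed block 20 passed, 17 higher and 3 lower, and with a random block 16, 13 higher and 3 lower. In both strains a change in the number of cells of a type and a change in RNA per cell cannot be told apart.

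**Figure D1:**
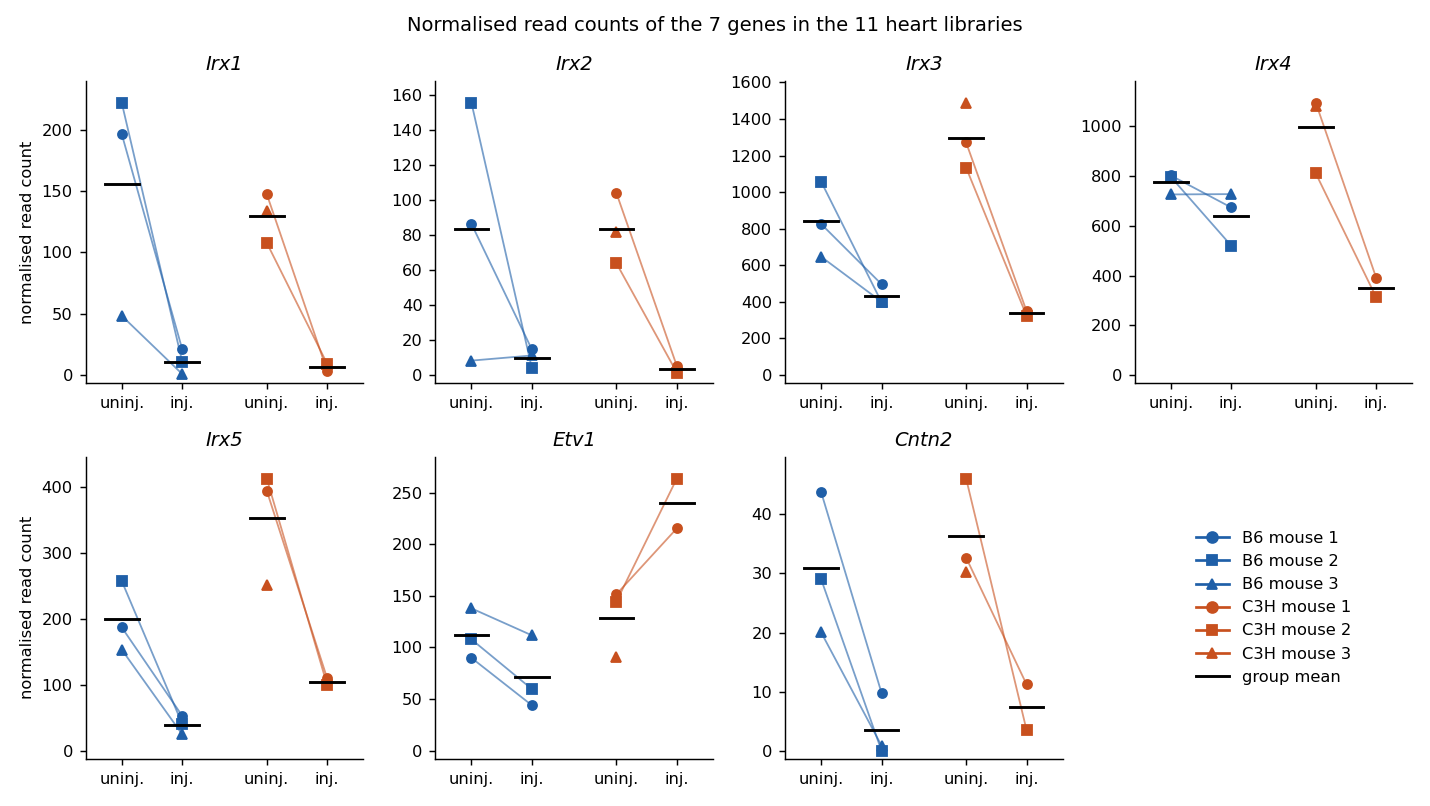
Normalised read counts of the 7 genes (y axis, linear, own scale per panel) in uninjured and injured regions of B6 (blue) and C3H (orange) hearts. Each symbol is 1 library, lines join the regions of 1 mouse, and black bars are group means. Irx1 is at 21.2 or less in all 5 injured regions, and Etv1 is lower after injury in the 3 B6 mice and higher in the 2 C3H mice.

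Irx1, the first gene of the chromosome 13 cluster, was nearly lost from injured regions. In uninjured B6 hearts it was at 196, 222 and 48.3 normalised counts and in the injured regions of the same mice at 21.2, 11.0 and 0.860, the last from 1 read. In uninjured C3H hearts it was at 148, 108 and 134, and in the injured regions of mice 1 and 2 at 3.46 and 9.19. The groups did not overlap in either strain, although the third uninjured B6 library was far below the other uninjured ones. The injured region of each mouse held 1.78% to 10.8% of the Irx1 level of its uninjured region. The group means were 156 ± 93.7 and 11.0 ± 10.2 in B6 (SD, n = 3 each), 14.1-fold lower after injury, a log2 difference of -4.03 (SE 0.82), which was -2.99 without the third and -4.78 without the first injured B6 library. In C3H they were 130 ± 20.2 (SD, n = 3) and 6.32 ± 4.05 (SD, n = 2), 20.5-fold lower, and Irx1 fell by 4.27 on the log2 scale (SE 0.92, limma adjusted p = 0.00499). The call held without each library in turn.

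Irx2, its neighbour, had 3 uninjured C3H values of 104, 63.9 and 81.7 and injured ones of 5.19 and 1.41, from 6 and 2 reads. It fell by 4.42 in C3H (SE 0.98, limma adjusted p = 0.00592). Without the second injured C3H library the difference was -3.74 (limma adjusted p = 0.0736). In B6 hearts Irx2 was at 86.4, 156 and 8.25 in uninjured and 14.7, 3.93 and 11.2 in injured regions. These groups overlapped, because mouse 3 had a low uninjured value, and its injured region held 135% of it where mice 1 and 2 held 17.0% and 2.53%. The log2 difference in B6 was -2.36 (SE 0.88) with all libraries, -3.58 without the third uninjured one and -1.54 without the second. The third uninjured B6 library was also the lowest uninjured one for Irx1, Irx3, Irx4, Irx5 and Cntn2. It had the highest uninjured B6 value of Etv1.

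Irx4, the third gene of that cluster and a factor of ventricular muscle, was among the most abundant of the 7. Uninjured B6 hearts held 802, 796 and 726 and injured regions 673, 520 and 727, so the groups overlapped, and mouse 3 had the same level in both regions (100%). The B6 means were 775 ± 42.5 and 640 ± 108 (SD, n = 3 each), a log2 difference of -0.29 (SE 0.20). In C3H hearts the levels were 1094, 810 and 1081 in uninjured and 391 and 312 in injured regions, with no overlap. Irx4 fell by 1.49 there (SE 0.23, limma adjusted p = 0.000798), and the injured regions held 35.7% and 38.5% of the same mice's uninjured level. The difference of the injury effects, C3H minus B6, was -1.21 (SE 0.31), given with no test.

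Irx3, the His-Purkinje factor of the chromosome 8 cluster, had the same direction in all 5 mice. It was at 826, 1058 and 647 in uninjured B6 hearts and at 497, 398 and 401 in their injured regions. In C3H hearts it was at 1271, 1134 and 1488 and, after injury, at 350 and 325. Injured values lay below uninjured ones in both strains without overlap. Injured regions held 37.7% to 61.9% of the uninjured level in the B6 mice and 27.5% and 28.7% in the C3H mice. The B6 log2 difference was -0.94 (SE 0.22). In C3H Irx3 fell by 1.93 (SE 0.24, limma adjusted p = 0.000239), and this call held without each library in turn. The antisense gene Irx3os overlaps 4.49% of the Irx3 exon length in the annotation, and the sources used here do not state whether the counting used strand.

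Irx5, next to Irx3 and known for its part in ventricular repolarisation, was at 187, 257 and 153 in uninjured B6 hearts and 53.0, 40.8 and 24.9 in injured regions. In C3H hearts it was at 394, 412 and 250 in uninjured and 110 and 99.6 in injured regions. No injured value reached an uninjured one of the same strain. Injured regions held 15.9% to 28.4% of the uninjured level in B6 mice and 24.2% and 27.9% in C3H mice. The log2 difference was -2.33 in B6 (SE 0.33), 5.03-fold lower by the group means. Irx5 fell by 1.71 in C3H (SE 0.37, limma adjusted p = 0.00499), and without the second injured C3H library the difference was -1.64 (limma adjusted p = 0.0520).

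Etv1, the ETS factor, was the one gene of the 7 with opposite directions in the strains. It was at 89.9, 108 and 138 in uninjured B6 hearts and at 44.0, 59.7 and 112 in injured regions, overlapping groups in which each mouse was lower after injury, at 49.0%, 55.4% and 81.1% of its uninjured level. In C3H hearts it was at 151, 144 and 90.6 and, after injury, at 215 and 264, without overlap (29.6% of tested genes were higher in this way), and the 2 mice with both regions reached 142% and 182%. Of all tested genes, 1.15% were lower in the 3 B6 mice and higher in the 2 C3H mice. The log2 difference was -0.72 in B6 (SE 0.36). In C3H it was 0.92 (SE 0.40), which missed the threshold (limma adjusted p = 0.0998), and neither edgeR (0.89, adjusted p = 0.105) nor DESeq2 (0.90, adjusted p = 0.0776) called it. With the mouse as a fixed block it was 0.68 (limma adjusted p = 0.118), and with a random block 0.83 (limma adjusted p = 0.0498). The difference of the effects was 1.64 (SE 0.53) and was not tested.

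Cntn2, the Purkinje cell adhesion gene, was the least abundant of the 7 per kilobase of exon in every group. In uninjured hearts it had 43.8, 29.0 and 20.03 normalised counts in B6 and 32.7, 46.1 and 30.2 in C3H. In injured regions it had 9.78, 0 and 0.860 in B6, from 12, 0 and 1 reads, and 11.2 and 3.53 in C3H, from 13 and 5 reads. A count of 0 in the second injured B6 library allows up to 3 reads. The groups did not overlap in either strain. The B6 log2 difference was -3.49 (SE 0.78), which was -2.77 without the second and -4.48 without the first injured B6 library. In C3H it was -2.30 (SE 0.87, limma adjusted p = 0.0651), and with the mouse as a fixed block it was -2.42 (limma adjusted p = 0.0340). It was also past the threshold with DESeq2 (adjusted p = 0.0320) and not with edgeR (adjusted p = 0.0874).

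Counting the genes whose groups did not overlap, 6 of the 7 were lower in injured C3H hearts, against 29.7% of all tested genes, and 4 of the 7 in injured B6 hearts, against 7.69%. Irx1, Irx3, Irx5 and Cntn2 were lower in the injured region of all 5 mice, as were 19.9% of tested genes. The B6 counts describe the values that had a part in choosing the genes, and nothing is read from them.

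**Figure D2:**
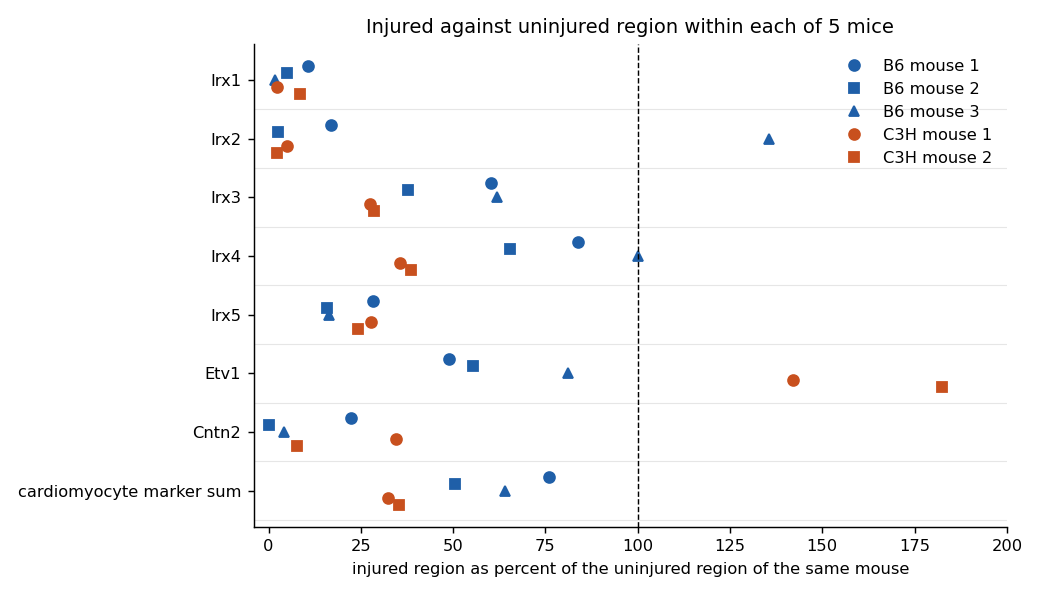
Level in the injured region as a percent of the uninjured region of the same mouse (x axis, linear, dashed line at 100%) for the 7 genes and for the sum of 16 cardiomyocyte markers. Each symbol is 1 of 5 mice, blue for B6 and orange for C3H. Irx1 lies between 1.78% and 10.8%, left of the cardiomyocyte sum in each mouse, whose own values are 32.2% to 76.0%. Irx3 and Irx5 also lie left of that sum in each mouse.

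Summed markers of heart muscle were lower in the injured region of each mouse with both regions. The sum of 16 cardiomyocyte markers, among them the myosin gene Myh6 and the troponin gene Tnnt2, was 1756590 to 2070800 in uninjured and 1043310 to 1334790 in injured B6 regions. It was 1896520 to 2405860 in uninjured and 672098 to 758101 in injured C3H regions, with no marker at 0. In C3H 13 of the 16 fell and 0 rose by limma (0 rose at an unadjusted p below 0.05, by edgeR or by DESeq2), with a median of -1.75. Without the second injured C3H library 7 fell. All 9 macrophage markers tested rose in C3H. Their sum was 12063 to 20161 in uninjured and 74593 to 129837 in injured C3H regions, and 21933 to 31157 and 35359.6 to 50110.3 in those of B6. The sum of 10 fibroblast markers was 75310.6 to 303710 in uninjured and 556929 to 763834 in injured C3H regions, and 228117 to 443539 and 473145 to 494243 in those of B6. In C3H 6 of 10 fibroblast markers rose and 1 fell. Of all tested genes, 15.3% rose and 15.4% fell in C3H by limma.

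The effects were therefore also computed relative to the summed cardiomyocyte markers of each library, a scale chosen after seeing the data. On it the median of all tested genes was 0.69 in B6 and 1.64 in C3H. In C3H hearts Irx3 was then at -0.30 (SE 0.23, limma adjusted p = 0.236), Irx4 at 0.13 (SE 0.23, adjusted p = 0.593) and Irx5 at -0.08 (SE 0.38, adjusted p = 0.849). These 3 values lay near 0 and none passed, which does not show that the genes moved as the markers did. Irx1 stayed lower, at -2.64 (SE 0.88, limma adjusted p = 0.0155), as did Irx2, at -2.79 (SE 0.92, adjusted p = 0.0142). Cntn2 was at -0.67 (SE 0.84, limma adjusted p = 0.466). Etv1 was higher by 2.55 (SE 0.46, limma adjusted p = 0.000315). This p is against 0, while the median of all tested genes was itself 1.64, and the share of genes called on this scale is not given.

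In B6 hearts, where no test is given, the values on that scale were -3.36 for Irx1 (SE 0.79), -2.81 for Cntn2, -1.68 for Irx2 (SE 0.82), -1.66 for Irx5 and -0.27 for Irx3. Irx4 turned to 0.39 and Etv1 came to -0.04. Irx1, Irx2, Irx3, Irx5 and Cntn2 had values below 0 on that scale in both strains, and of these Irx1 and Irx2 passed in C3H. Irx5 was further below 0 in B6 than in C3H, a difference that was not tested. The part of muscle content in the results on the deposited scale was not tested.

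**Figure D3:**
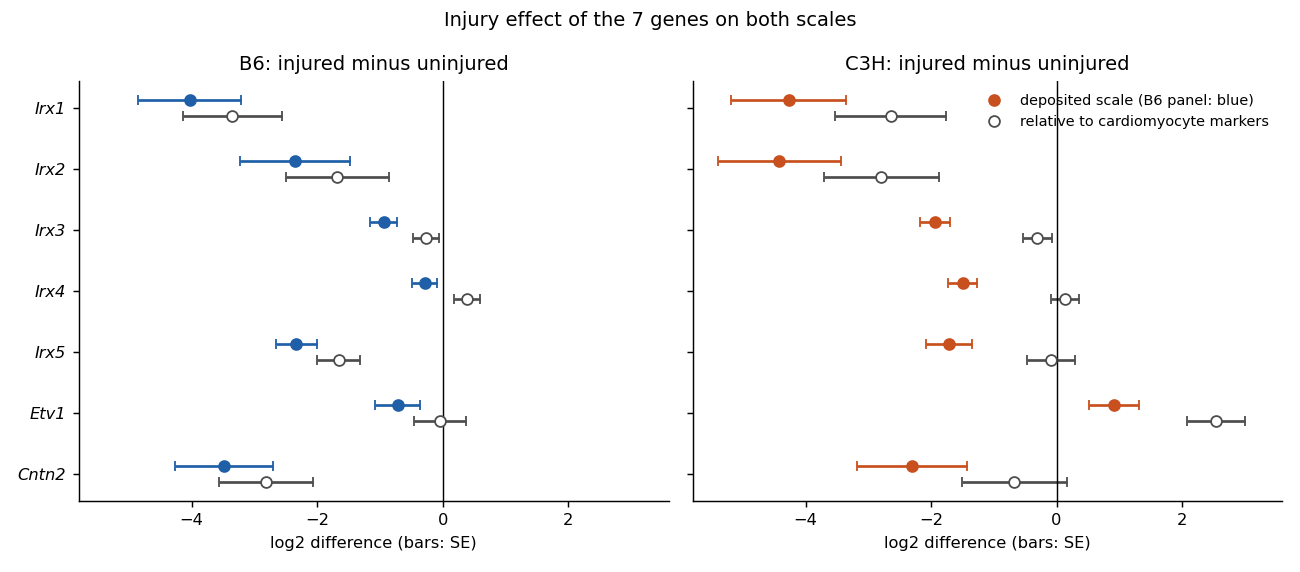
Injury effects of the 7 genes in B6 (left) and C3H (right) as log2 differences, injured minus uninjured (x axis), with bars of 1 SE. Filled points are on the deposited scale and open points relative to the summed cardiomyocyte markers. In C3H the open points of Irx3 (-0.30), Irx4 (0.13) and Irx5 (-0.08) lie near 0, while those of Irx1 (-2.64) and Irx2 (-2.79) stay below it.

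Between the strains, uninjured C3H hearts had higher Irx3 and Irx4 values than uninjured B6 hearts without overlap, as did 7.63% of all tested genes. The log2 difference, C3H minus B6, was 0.64 for Irx3 (SE 0.22) and 0.35 for Irx4 (SE 0.20), and relative to the cardiomyocyte markers 0.40 and 0.10. It was 0.82 for Irx5 (SE 0.33), 0.72 for Irx2 (SE 0.88), 0.27 for Cntn2 (SE 0.78), 0.19 for Etv1 (SE 0.36) and 0.00 for Irx1 (SE 0.82), and these groups overlapped. The Irx2 value turned to -0.50 without the third uninjured B6 library. The Irx2 group means were 83.4 in B6 and 83.2 in C3H, and its log2 difference was 0.073 by edgeR and 0.007 by DESeq2.

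In injured regions Etv1 and Irx5 were higher in C3H than in B6 and Irx3 and Irx4 were lower, each without overlap, as were 24.9% of tested genes in the higher and 24.2% in the lower direction. The Etv1 means were 239 ± 34.1 in C3H (SD, n = 2) and 71.8 ± 35.4 in B6 (SD, n = 3), a log2 difference of 1.82 (SE 0.40). Relative to the cardiomyocyte markers the Etv1 difference was 2.53, where the median of all tested genes was 0.71. The Irx4 difference was -0.86 (SE 0.23), and only -0.15 relative to those markers. Irx5 was at 1.44 (SE 0.37) and Irx3 at -0.35 (SE 0.24), which turned to 0.36 relative to the markers. The groups of Irx2 (-1.34, SE 0.98), Cntn2 (1.46, SE 0.87) and Irx1 (-0.23, SE 0.92) overlapped. These contrasts share libraries with the injury contrasts above.

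Per kilobase of annotated exon, the mean levels in uninjured B6 hearts were 305 for Irx3, 297 for Irx4, 63.7 for Irx5, 59.4 for Irx1, 25.4 for Irx2, 8.41 for Etv1 and 3.33 for Cntn2. In uninjured C3H hearts the order was the same, from 470 for Irx3 to 3.90 for Cntn2. In uninjured B6 hearts the means of Irx3 and Irx4 differed by less than the spread of Irx3, and those of Irx5 and Irx1 by less than that of either. In injured C3H regions Irx4 (135) and Irx3 (122) were followed by Irx5 (33.5) and then Etv1 (18.0), and Irx1 (2.41), Irx2 (1.01) and Cntn2 (0.794) were last. For Irx3 and Irx4 the order of the groups was uninjured C3H, uninjured B6, injured B6 and injured C3H, and for Irx5 it was uninjured C3H, uninjured B6, injured C3H and injured B6. Adjacent groups in these orders overlapped for Irx4 between the regions of B6 and for Irx5 between the uninjured regions of the strains, and not otherwise. Irx1, Irx2 and Cntn2 overlapped between the strains in both regions. Etv1 was highest in injured C3H regions, which overlapped no other group, and its other neighbours in order, uninjured C3H, uninjured B6 and injured B6, overlapped.

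Across the 11 libraries, which share the groups and so are no independent points, the log2 levels of the Iroquois genes and Cntn2 went together and those of Etv1 did not. Pearson's r was 0.916 for Irx2 with Irx3, 0.890 for Irx5 with Cntn2 and 0.885 for Irx1 with Irx3. Irx4 and Irx5 had the weakest relation among the Iroquois genes, with r of 0.479. Etv1 had r between -0.390 (with Irx4) and 0.340 (with Irx5). Of the tested genes with a mean of at least 20 counts, those most like each gene over the 11 libraries were Gfra4 for Irx1 (r = 0.951), Rrs1 for Irx2 (r = 0.983) and Ethe1 for Irx3 (r = 0.985). They were Pdcd7 for Irx4 (r = 0.967), Cep128 for Irx5 (r = 0.934), Rbm27 for Etv1 (r = 0.926) and Lcmt2 for Cntn2 (r = 0.916).

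Genes beside the Iroquois clusters moved in both directions in C3H hearts. Of 8 listed genes, which include Irx6 from within the chromosome 8 cluster, 3 rose and 3 fell in C3H, with a median of 0.12. Of all tested genes, 15.3% rose and 15.4% fell there by limma. In B6 none of the 8 passed by limma, edgeR or DESeq2, with 2 higher and 1 lower at an unadjusted p below 0.05. Irx6, the last Iroquois gene of the chromosome 8 cluster, fell by 1.90 in C3H (SE 0.52, limma adjusted p = 0.0165). The Irx6 call was lost without the first (limma adjusted p = 0.0503) or second (0.124) injured C3H library. Next to the clusters, Mmp2, a matrix metalloproteinase, rose by 1.96, and Adamts16, another metalloproteinase, by 4.64. Lpcat2, a lysophospholipid acyltransferase, rose by 2.88. Ndufs6, a subunit of respiratory complex I, fell by 2.53, and Mrpl36, a mitochondrial ribosomal protein gene, by 1.10, a call lost without the third uninjured or either injured C3H library (limma adjusted p = 0.106, 0.0673 and 0.198). Fto, beside Irx3, was at -0.39 (limma adjusted p = 0.174). The noncoding gene Crnde, chosen after its values were seen, had mean counts of 149 in uninjured and 35.3 in injured C3H regions, and of 92.9 and 46.2 in B6, where the groups overlapped.

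Of 19 genes of repolarisation and coupling, 10 fell in injured C3H hearts and 0 rose by limma (0 rose at an unadjusted p below 0.05, by edgeR or by DESeq2). The list median was -1.05, against 0.01 over all tested genes, of which 15.4% fell and 15.3% rose by limma. Kcnip2, the subunit of the fast transient outward channel, fell by 1.98 (SE 0.24), Kcnh2, a delayed rectifier, by 1.34 and Kcnj12, an inward rectifier, by 1.28. Kcnk3, a background potassium channel, fell by 1.55, and Kcnj3 and Kcnj11 by 1.52 and 1.28. Kcnd2, a transient outward channel gene known as a target of Irx5, fell by 0.94 (SE 0.31, limma adjusted p = 0.0382). The Kcnd2 call was lost without the second injured B6 library (limma adjusted p = 0.0555) or any C3H library (0.0509 to 0.217). Gja1, the main ventricular connexin, was at -0.76 (SE 0.33, limma adjusted p = 0.0963) and, with the mouse as a random block, at -0.74 (adjusted p = 0.0319). In B6 18 of the 19 values were below 0, with a median of -0.37, and 5 were lower at an unadjusted p below 0.05, with none past the adjusted threshold by limma, edgeR or DESeq2. The cardiomyocyte markers in the same C3H libraries had a median of -1.75, as given above, and their part in these values was not tested.

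The other conduction system genes did not share 1 direction in C3H hearts, where 15.3% of all tested genes rose and 15.4% fell by limma. Of 19 tested, 3 rose and 6 fell in C3H, with a median of -0.42, and 3 passed without the second injured C3H library. Kcne1, a potassium channel subunit, fell by 2.52 (SE 0.40), Nkx2-5, a homeobox factor of heart muscle and conduction, by 1.96 (SE 0.23) and Hcn2, a pacemaker channel, by 1.61. Cacna1d, an L-type calcium channel gene, rose by 2.83, the guidance cue gene Slit2 by 2.35 and Id2, an inhibitor of helix-loop-helix factors, by 1.80. The calls of Hcn2 and Id2 were lost without the second injured C3H library (limma adjusted p = 0.148 and 0.0577), and that of Cacna1d without it or the third uninjured one (0.200 and 0.0542). Gja5, the fast-conduction connexin that Irx3 is known to regulate, was at -0.14 in C3H (SE 0.40, limma adjusted p = 0.816). In B6 none of the 19 passed by limma, edgeR or DESeq2, and 3 were higher and 1 lower at an unadjusted p below 0.05.

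Among 6 genes of neuregulin signalling and the ETS factors related to Etv1, 1 rose in C3H and none fell by limma, edgeR, DESeq2 or at an unadjusted p below 0.05. That gene was Etv4, at 9.90, 6.28 and 16.9 counts in uninjured and 129 and 82.0 in injured C3H regions, a rise of 3.21 (SE 0.61, limma adjusted p = 0.00263). Etv5 was at 0.36 (SE 0.34), the ligand gene Nrg1 at 0.96 (SE 0.69) and the receptor genes Erbb2 and Erbb4 at -0.04 and 0.43, and none of these passed. Of 6 tested genes that encode partners or relatives of contactin 2, 2 rose in C3H. Of all tested genes, 15.3% rose and 15.4% fell there by limma. Nfasc, the gene beside Cntn2 and itself an adhesion molecule, was at 14.9, 26.2 and 5.33 in uninjured and 349 and 450 in injured C3H regions, and it rose by 4.83 (SE 0.66, limma adjusted p = 0.000400). Nrcam rose by 2.02 (SE 0.55, limma adjusted p = 0.0159), a call lost without either injured C3H library (0.0832 and 0.102). Of these 6 genes, 1 was lower at an unadjusted p below 0.05 in C3H and none passed as lower by limma, edgeR or DESeq2.

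**Figure D4:**
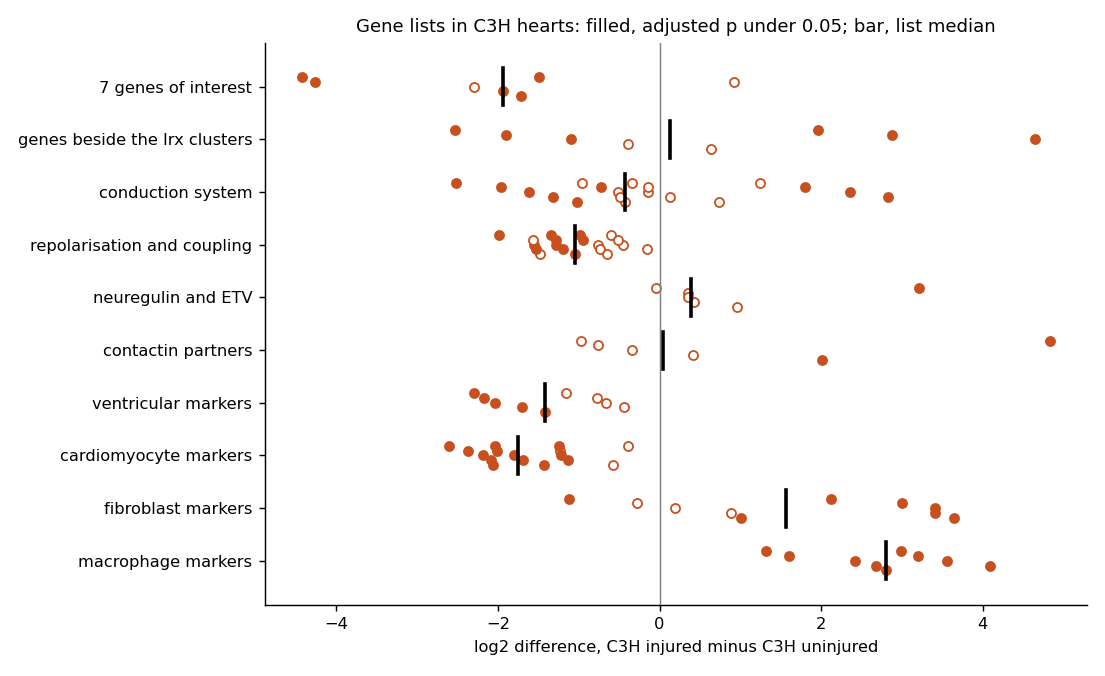
Log2 differences, C3H injured minus C3H uninjured (x axis), for the genes of 10 lists, 1 point per tested gene. Filled points had a limma adjusted p below 0.05 and black bars are list medians. The bar of the 7 genes is at -1.93, with points from -4.42 to 0.92. That of the cardiomyocyte markers is at -1.75, and the macrophage bar is at 2.80.

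Other ventricular and endocardial genes were measured beside them. Of 9 ventricular markers 5 fell in C3H (median -1.41), 8 with the mouse as a fixed block and 2 without the second injured C3H library, among them Myl2 by 2.29 (SE 0.42) and Hand2, a basic helix-loop-helix factor, by 1.70 (SE 0.22). Npr3, a natriuretic peptide receptor gene used as an endocardial marker, averaged 207 in uninjured and 64.9 in injured B6 regions, with a log2 difference of -1.68 (SE 0.40, limma adjusted p = 0.364). In C3H Npr3 fell by 1.84 (SE 0.45, limma adjusted p = 0.00954), a call lost without either injured C3H library (0.0564 and 0.0614). Of the 8 tested endocardial markers 3 rose and 2 fell in C3H, where 15.3% of all tested genes rose and 15.4% fell by limma. Cdh11 rose by 2.37, Plvap by 1.61 and Nfatc1 by 1.39, and besides Npr3 the other that fell was Emcn, at -0.85.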

How the data were processed

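RNA from 11 heart regions was sequenced, from 6 mice by the numbers in the sample titles. The deposited signal is gene-level read counts divided by DESeq size factors, made by the authors with TopHat2 2.0.11 on build mm9 and HTSeq 0.6.1, per the submitters' processing notes. The annotation, strandedness and filters are not stated in the sources used here. Every value (100%) was a whole multiple of 1 step per library at a tolerance of 1e-06, and the reads recovered in this way summed to 9699985 to 22138459 per library, which sets the counting error of low genes.

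Genes with at least 10 normalised counts in at least 2 libraries (14751 of 15274) were fitted with limma 3.58.1 (R 4.3.3) with a trend, on log2(normalised count + 1), with 4 group means and 7 residual degrees of freedom. This main fit had no block for the mouse, as the study states none, and so treated both regions of a mouse as independent. Calls use a Benjamini-Hochberg adjusted p below 0.05. edgeR 4.0.16 and DESeq2 1.42.0 were run on the recovered reads as alternatives, with other pseudocounts, filters and scalings, the mouse as a block, and each library left out. The code was tested on simulated data.

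Regions of a strain with the same number in the sample title were taken to be from the same mouse. Residuals of the 2 regions of a mouse correlated at 0.276, -0.0140 and 0.524 in B6 and 0.305 and 0.575 in C3H, and the random block used a correlation of 0.392.

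The 7 genes and the gene lists were chosen with earlier results of these data known. All 7 genes are named. Per list at most 6 genes past the threshold are named in a contrast, for some lists fewer and not always those of largest change. The most abundant marker of some lists is named, and Npr3, Gja1, Gja5 and Kcnd2 are named in any case. Of the 3 genes of highest correlation with each gene, the first is printed. A few other list genes (Fto, Nrg1, Erbb2, Erbb4, Etv5, Myl7) were named after their values were seen. Exon lengths are from GENCODE on GRCm38, a build other than the files', so gene coordinates are not printed.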

Additional observations from a re-analysis of the deposited data

Results flagged for a closer look

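Etv1 was lower in the injured region of the 3 B6 mice and higher in that of the 2 C3H mice. The difference of its log2 injury effects, C3H minus B6, was 1.64 (SE 0.53), and it was not tested.

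Among the genes of the lists, the difference of injury effects passed the test for 6. Over all 14751 tested genes it passed for 231, of which 221 had a positive and 10 a negative difference. The lists were chosen with earlier results of these data known, so their calls are no independent support. Within the lists it passed for Nkx2-5 at -1.57 (SE 0.31, limma adjusted p = 0.0264) and for Nfasc at 4.46 (SE 0.88, limma adjusted p = 0.0278). Nkx2-5 was lower in the injured region in both strains, by more in C3H, and Nfasc was higher in C3H and at 0.37 in B6. Both calls were lost without the second injured C3H library (limma adjusted p = 0.241 for Nkx2-5 and 0.222 for Nfasc). They were also lost without the first uninjured B6, any injured B6 or the third uninjured C3H library, and that of Nfasc without the first injured C3H library.

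The other 4 were macrophage markers, with larger rises in C3H than in B6. The difference was 3.07 for Cd68 (limma adjusted p = 0.00394), 2.54 for Adgre1 (limma adjusted p = 0.0226), 2.51 for Lyz2 (limma adjusted p = 0.0162) and 2.46 for Cd14 (limma adjusted p = 0.0333). Without the second injured C3H library the calls of Adgre1, Lyz2 and Cd14 were lost (limma adjusted p = 0.180, 0.154 and 0.269). The call of Lyz2 was also lost without the first uninjured B6 or the third uninjured C3H library. That of Adgre1 was lost without either of these, the second uninjured B6 or the first injured B6 or the third injured B6 library. That of Cd14 was lost without any of these 5 or the first uninjured or first injured C3H library. The call of Cd68 held without each library in turn.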

How the results depend on the processing

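With the mouse as a fixed block (paired by mouse), 20 genes passed in B6 and with a random block 16, against 2 without, and DESeq2 called 4. Leaving out 1 library gave 1 to 6. For C3H 4527 genes passed, and 1708 to 5017 with 1 library left out, the lowest without the second injured C3H library and 2801 without the first. Of the 7 genes, 5 fell in C3H, and 3 to 6 with 1 library left out. Between uninjured regions 458 genes passed, 191 with only the groups compared, 916 by DESeq2 and 213 to 788 with 1 library left out. Between injured regions 1042 passed, 2014 by DESeq2 and 101 to 1322 with 1 library left out. For the difference of the injury effects 231 passed, 491 with the fixed and 777 with the random block, 722 by DESeq2 and 10 to 272 with 1 library left out. The cause of these shifts was not tested. The block changed the C3H calls of Etv1, Cntn2 and Gja1, as given above. With the fixed and the random block, 14 and 15 repolarisation genes (10 without), 8 and 7 ventricular markers (5) and 11 and 14 cardiomyocyte markers (13) fell in C3H.

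Relative to cardiomyocyte markers Irx4 turned to 0.39 in B6 and 0.13 in C3H, Etv1 to -0.057 between uninjured regions and Irx3 to 0.36 between injured ones. Gja5 in C3H was at 0.065 with the fixed block and from -0.58 to 0.30 with 1 library left out. Irx2 between uninjured regions went from -0.50 to 1.54 with 1 library left out. Quantile normalisation moved the median of all tested genes in C3H to -0.11. With 1 injured C3H library left out, the other is assumed to vary like the other groups. Irx1, Irx2 and Cntn2 had 0 to 26 reads in injured regions, and this depth limits their fold changes.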
